A study of Mus musculus with 9 samples.

Results

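Collagen chains were followed in RNA from mouse pancreatic stellate cells grown in control medium, in tumour organoid conditioned medium, or in that conditioned medium with a JAK inhibitor. The members were all genes of the count table whose symbol has the form of Col, a number, the letter a and a number, and 41 of the 17156 genes in the table matched. They comprised 11 fibrillar chains, 9 network chains, 6 beaded filament chains, 8 FACIT chains (fibril-associated collagens with interrupted triple helices), 3 transmembrane chains, 2 multiplexins, Col7a1 of anchoring fibrils, and Col28a1.

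All 9 libraries came from pancreatic stellate cell lines of the C57BL/6J mouse strain. The control group, MG-CM, had DMEM with 5% FBS for 4 days. The CM group had medium conditioned by tumour organoids for the same time, and the CM-JAKi group had that medium with AZD1480 at 500 nM, an inhibitor of JAK kinases. The FBS content of the conditioned medium is not given in the sources used here. Each group held 3 libraries. Replicate 1 came from line PSC4, and replicates 2 and 3 from line PSC5, labelled PSC5-I and PSC5-II, and each replicate number had its own source of conditioned medium. Line and medium source therefore changed together between PSC4 and PSC5, while PSC5-I and PSC5-II shared a line and differed in medium source. Having 3 libraries from 2 lines limits what a group stands for. The labels also describe the MG-CM group as Matrigel-conditioned or control medium, without saying which was used where.

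Collagens are triple helices of 3 chains, and the different chains of a heterotrimer are encoded by separate genes, which must be co-expressed. Fibrillar collagens (types I, III and V among them) make the load-bearing fibrils of scar tissue, type IV collagen forms the sheet of basement membranes, and type VI collagen forms beaded filaments around cells. Stellate cells are the main matrix-producing cells of the pancreas, and the question behind the CM and CM-JAKi groups was how their state depends on tumour-derived signals through JAK kinases.

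Library totals ran from 25625806 to 32466018 counts, of which collagen chains took 0.522% to 1.09%. Of 9 stellate and fibroblast markers, Pdgfrb was at 396 to 742 CPM (counts scaled to a common library total) in all libraries, whereas Des, a classical stellate cell marker, was at 0.924 to 3.32. The 9 summed to 4898 to 5434 CPM in MG-CM, 4495 to 7255 in CM and 4468 to 5457 in CM-JAKi, and members moved in opposite directions within that sum. In CM, Vim fell by 1.03 ± 0.26 and S100a4 by 1.52 ± 0.32 (log2, SE), and Dcn rose by 2.86 ± 0.53 (edgeR adjusted p = 0.0415, 0.0229 and 0.0175). With the inhibitor, against CM, S100a4 rose by 1.32 ± 0.31 and Dcn fell by 2.77 ± 0.53 (edgeR adjusted p = 0.0229 and 0.0102). Dcn held 4610.4 CPM of the sum in CM replicate 1. Leaving out 1 library ended these calls in 4 of 6 fits for Vim, 5 for S100a4 and 2 for Dcn in CM (edgeR adjusted p up to 0.146, 0.0873 and 0.0825), and in 2 for S100a4 and 0 for Dcn with the inhibitor (up to 0.067 and 0.0403).

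Markers of other cell types were not all near 0. The 8 ductal markers summed to 34.5 to 49.1 CPM in MG-CM, 34.3 to 37 in CM and 28.6 to 44.8 in CM-JAKi, where Epcam was at or under 0.18 CPM but Krt19 reached 25.1, Sox9 26.1 and Muc1 16.5. The 5 mesothelial markers summed to 3.57 to 15.9, 2.68 to 69.1 and 6.65 to 54.3 CPM, with Msln up to 67.1 in CM replicate 3. The 8 chondrocyte and osteoblast markers summed to 28.7 to 39.7, 23.4 to 34.8 and 30.4 to 33.8 CPM, with Runx2 up to 32.9 and Acan at or under 0.0758. The 6 endothelial markers summed to 6.18 to 8.4, 3.15 to 4.55 and 8.93 to 16.2 CPM, and the 5 leukocyte markers to 22.5 to 34.6, 33.6 to 118 and 15.6 to 32.1 CPM, with Ptprc at or under 0.0387 and Cd14 at 114 in CM replicate 1. The 6 acinar and endocrine markers summed to 7.31 to 8.53, 9.7 to 14.1 and 5.66 to 7.89 CPM. By edgeR, the endothelial genes Tek and Emcn were called lower in CM and higher in CM-JAKi against CM, and Muc1, Wt1, Cd14 and Cela1 were called lower in CM-JAKi against CM. Emcn was also called higher in CM-JAKi against MG-CM. Leaving out 1 library ended these calls in 3 of 6 fits for Tek and 1 for Emcn in CM, in 3 for Tek, 0 for Emcn, 5 for Muc1, 4 for Wt1 and for Cd14 and 6 for Cela1 in CM-JAKi against CM, and in 4 for Emcn against MG-CM. Other members of the same lists did not all move with the called ones. In CM-JAKi against CM the median log2 change of the endothelial markers tested was -0.229. Mean CPM there went from 1.09 to 0.938 for Kdr, 1.61 to 0.902 for Vwf and 0.38 to 0.267 for Pecam1. Against the falls of Muc1 and Wt1, mean CPM of Krt19 went from 3.08 to 14.5 and that of Msln from 24.9 to 27. The part of these marker shifts in the collagen results was not tested. In such bulk RNA, fewer cells of a type and less RNA per cell cannot be told apart.

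Summed over all 41 chains, collagen RNA stood at 7587, 7107 and 7653 CPM in MG-CM replicates 1, 2 and 3, at 5550.4, 5951 and 7519 CPM in CM, then at 10545, 8675 and 7967 CPM in CM-JAKi. Every CM-JAKi library lay above every library of the other groups, while the CM and MG-CM groups overlapped. The mean log2 difference was -0.24 for CM against MG-CM (exact two-sided permutation test, p = 0.2) and 0.52 for CM-JAKi against CM (exact permutation p = 0.1). With 3 libraries against 3, the smallest p this test can give is 0.1. The difference between CM-JAKi and CM was uneven across replicate numbers, at log2 0.93 in PSC4, 0.54 in PSC5-I and 0.08 in PSC5-II. In the sum without Col1a1, Col1a2 and Col3a1, CM-JAKi stood at 6329, 4644 and 4310.1 CPM and overlapped MG-CM, at 4833, 4323 and 4569.8. The mean log2 difference between them was then 0.14 (exact permutation p = 0.7).

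Of the 5 classes summed, the beaded filament class differed most in both comparisons with CM, and least between CM-JAKi and MG-CM (log2 0.16). That sum was mostly Col6a1, at a mean of 826 CPM in MG-CM and 1023 in CM-JAKi. Chain by chain, the median log2 change of this class in CM-JAKi against MG-CM was -0.829. There, 2 of its 6 chains were higher in all 3 replicate numbers and 4 were lower in all 3, beside 17 and 8 of the 39 chains tested over all classes. The share over all genes is not given for this count. The 6 beaded chains summed to 1427, 1422 and 1077 CPM in MG-CM, 512, 658 and 443 CPM in CM, then 1777, 1477 and 1160.1 CPM in CM-JAKi. The CM libraries lay below all others, at 0.408 times the MG-CM level, and CM-JAKi lay 2.73-fold above CM (exact permutation p = 0.1 for each). By contrast the 11 fibrillar chains summed to 3999.7 ± 247 CPM in MG-CM and 3787 ± 894 in CM (SD, n = 3), which overlapped, and to 5313 ± 371 in CM-JAKi, where all libraries were above the rest. The network class overlapped between all groups, at 1632 ± 249, 1647 ± 216 and 1927 ± 623 CPM. FACIT chains summed to 375 ± 100 CPM in MG-CM, 254 ± 44.1 in CM and 274 ± 57.6 in CM-JAKi. The transmembrane class was the least abundant of these 5, at 9.99 ± 0.536, 14.9 ± 5.67 and 14.6 ± 1.02 CPM.

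**Figure D1:**
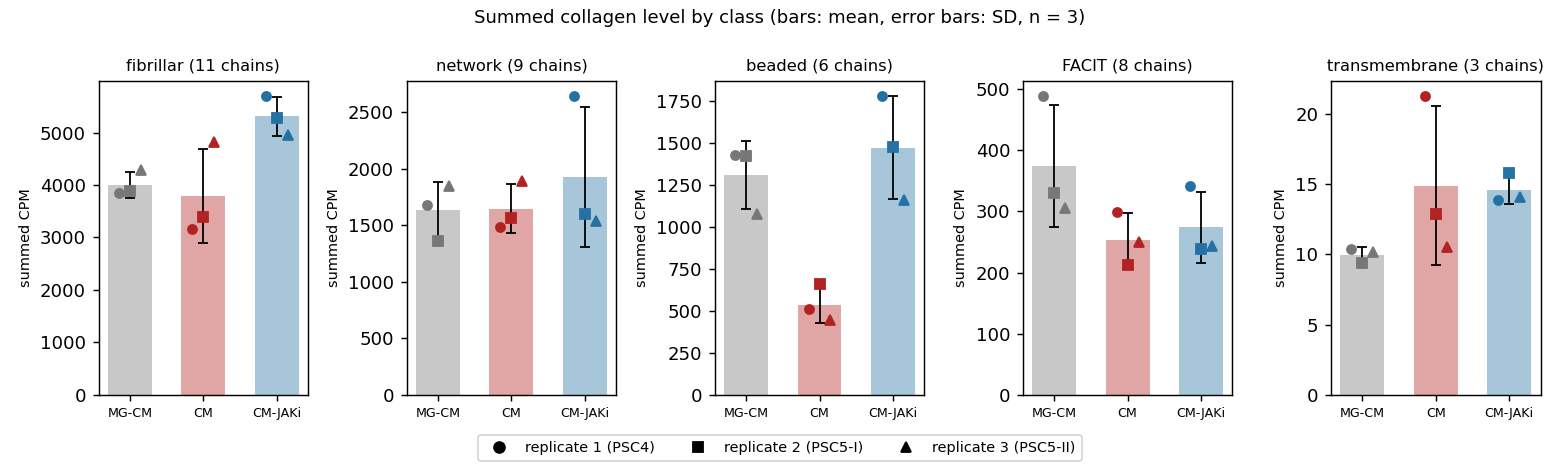
Summed CPM (linear vertical axes, 1 panel per collagen class) in each of the 9 libraries. Bars are means and error bars SDs of 3 libraries per group, and marker shapes give the replicate number and line. The beaded class averages 1309 CPM in MG-CM, 537 in CM and 1471 in CM-JAKi, while the network class overlaps between groups.

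Of the 41 chains, 39 passed the filter on low counts and entered the edgeR fit over 13613 genes. Col9a2 and Col22a1, both FACIT chains, did not, and stayed at or under 0.348 and 0.305 CPM. In CM against MG-CM, 1 chain rose (Col5a3) and 3 fell (Col6a1, Col6a2 and Col6a5), where 4.85% of all tested genes rose and 5.39% fell. The median log2 change was -0.179 over the 39 chains and 0.00575 over all genes. With the replicate number as a block, which compares cultures of the same line, 4 chains were called higher and 11 lower, beside 11.6% and 12.8% of all genes. The block also holds the source of organoid medium between CM-JAKi and CM, whereas MG-CM had none. Below, estimates and SEs beside adjusted p-values of the block fit are those of the fit without the block, unless said otherwise. DESeq2 called 2 higher and 9 lower, beside 8.23% and 8.94%. At an unadjusted p under 0.05, 2 were higher and 12 lower, beside 13.9% and 14.4% of all genes. The 3 libraries of CM lay above all 3 of MG-CM for 3 chains and below them for 12, beside 16.0% and 16.8% of all genes.

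In CM-JAKi against CM, 10 chains rose and 2 fell, beside 10.1% and 8.93% of all genes. Those that rose were Col1a1, Col1a2, Col5a1 and Col11a1 of the fibrillar class, Col4a5 and Col8a2 of the network class, Col6a1 and Col6a2 of the beaded class, the FACIT chain Col14a1 and the multiplexin Col15a1. Those that fell were Col24a1 and Col28a1. The median log2 change of the 39 was 0.251, beside 0.00802 over all genes. The block gave 14 higher and 4 lower, beside 18.6% and 15.6%, and DESeq2 12 and 3, beside 12.1% and 11.7%. At an unadjusted p under 0.05, 15 were higher and 4 lower, beside 18.2% and 16.2%. The groups did not overlap for 13 chains with CM-JAKi higher and 2 with it lower, beside 20.1% and 18.3% of all genes. Scaled by library size alone, the median of all genes shifted to 0.103 and the split of all calls moved from 1369 higher and 1216 lower to 1853 and 865.

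In CM-JAKi against MG-CM, edgeR called 0 chains higher and 0 lower, beside 0.286% and 0.720% of all genes. At an unadjusted p under 0.05, 9 were higher and 6 lower, beside 5.36% and 5.31%, and DESeq2 called 5 and 5, beside 1.33% and 2.13%. With the block, 7 were called higher and 2 lower, beside 1.85% and 2.40%. The groups did not overlap for 10 chains with CM-JAKi higher and 6 with it lower, beside 8.87% and 8.24%. The 3 comparisons share libraries with each other, so their values are set side by side and not treated as separate evidence.

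**Figure D2:**
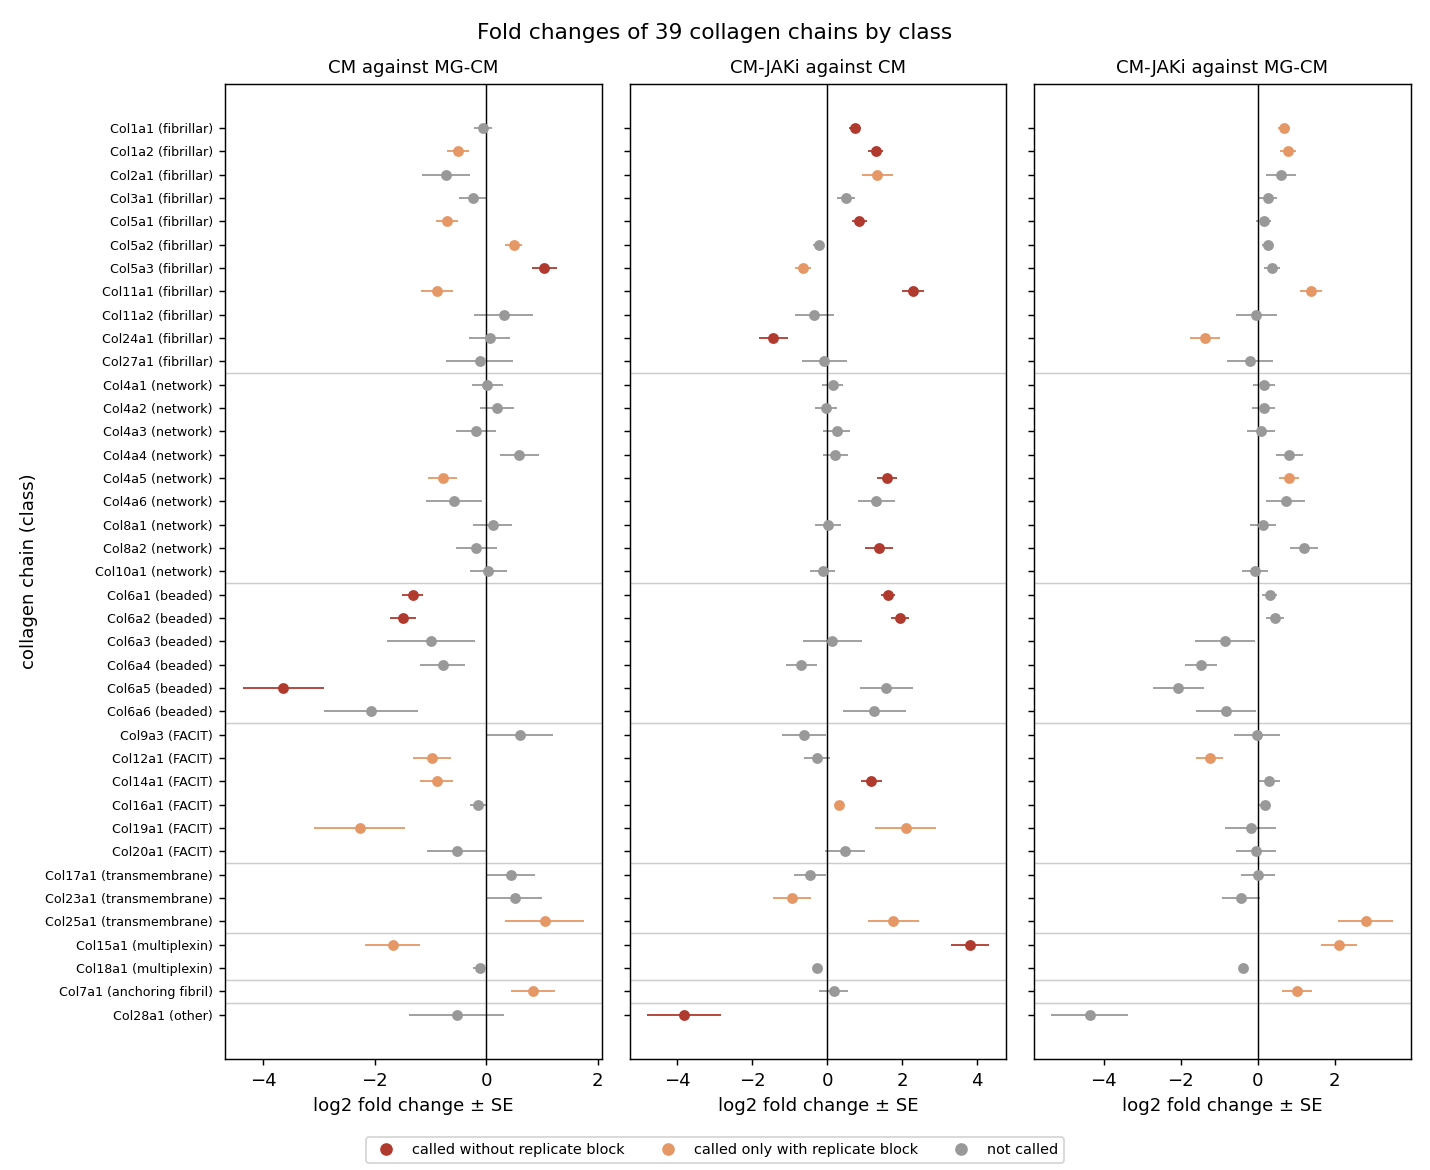
Log2 fold change of each of the 39 chains in the 3 comparisons, grouped by class. Points are edgeR estimates with SE, dark red where called by edgeR without a block at an adjusted p under 0.05, orange where called only with the replicate block, and grey otherwise. The beaded chains lie at or left of -0.78 in CM against MG-CM, and Col15a1 (3.80) and Col28a1 (-3.82) lie farthest out in CM-JAKi against CM.

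Type VI collagen needs Col6a1 and Col6a2 together with a longer partner chain (Col6a3 in most tissues, and Col6a4, Col6a5 or Col6a6 in some). Both genes of the shared pair, which neighbour each other on mouse chromosome 10, fell in CM and rose in CM-JAKi. The 250 bases upstream of the Col6a1 start are shown because Col6a1 was the most abundant chain to change in both comparisons. They come from RefSeq (GRCm38.p6, chr10:76726045-76726294, minus strand), written 5′ to 3′, and capitals mark the AP-1 type motif TGANTCA.
Col6a1: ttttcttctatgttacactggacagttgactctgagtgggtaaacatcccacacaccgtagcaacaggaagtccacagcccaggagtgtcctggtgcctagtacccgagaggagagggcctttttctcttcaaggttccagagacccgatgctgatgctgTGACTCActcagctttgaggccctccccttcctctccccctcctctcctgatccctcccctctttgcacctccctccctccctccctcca
Among the 35 upstream windows that RefSeq gives for 33 of the 41 members, this was the only window with that motif on either strand (2.86%), beside 6.75% of 32851 mouse windows of the same length. A match of letters is a description and not a shown binding site.

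Col6a1 stood at 765, 968 and 745 CPM in MG-CM, 266, 423 and 302 in CM, then 1079, 1080.2 and 911 in CM-JAKi. The CM libraries were the lowest, and no group overlapped CM. Col6a1 fell by 1.32 ± 0.19 (log2, SE) in CM against MG-CM (edgeR adjusted p = 0.00987) and rose by 1.63 ± 0.19 in CM-JAKi (edgeR adjusted p = 0.00132). Col6a2 stood at 221, 256 and 196 CPM in MG-CM, 75.5, 100.3 and 63.1 in CM, then 392, 307 and 222 in CM-JAKi. It had the same arrangement of groups, and fell by 1.49 ± 0.23 and rose by 1.95 ± 0.24 (edgeR adjusted p = 0.0106 and 0.00174). Against MG-CM, CM-JAKi differed by 0.31 ± 0.19 for Col6a1 and 0.45 ± 0.23 for Col6a2 (edgeR adjusted p = 0.638 and 0.549). The fall of Col6a2 lost its call without MG-CM replicate 2 (edgeR adjusted p = 0.0536). Without replicate 2 or 3 in every group, both falls lost their calls (edgeR adjusted p = 0.101 and 0.0864 for Col6a1, 0.137 and 0.0681 for Col6a2). The rises of both genes passed in all 19 alternative fits.

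Col6a3, the usual partner chain, passed in no comparison. It stood at 425, 190.2 and 129 CPM in MG-CM, 169, 132 and 75.1 in CM, then 300.1, 88 and 24.9 in CM-JAKi. The PSC4 libraries were the highest in every group, and the groups overlapped. The changes were -0.99 ± 0.79 in CM and 0.14 ± 0.78 in CM-JAKi against CM (edgeR adjusted p = 0.46 and 0.92). Per kilobase of transcript, Col6a3 over Col6a1 ran at 0.226, 0.0797 and 0.0703 in MG-CM, 0.257, 0.127 and 0.101 in CM, then 0.113, 0.0331 and 0.0111 in CM-JAKi. Within each replicate number the ratio was lowest in CM-JAKi.

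The alternative partner chains were scarce. Col6a5 stood at 11.6, 4.74 and 4.02 CPM in MG-CM, 0.104, 0.713 and 0.787 in CM, then 2.74, 1.02 and 1.08 in CM-JAKi. The 3 groups did not overlap, with MG-CM highest and CM lowest. It fell by 3.64 ± 0.73 in CM (edgeR adjusted p = 0.021), a call that was lost without MG-CM replicate 2 (0.0656), and CM replicate 1 rests on 3 counts. CM-JAKi against CM was 1.58 ± 0.71 (edgeR adjusted p = 0.152). Col6a6, its neighbour on chromosome 9, stood at 2.95, 1.12 and 0.985 CPM in MG-CM, at 0.139, 0.558 and 0.492 in CM, then at 2.15, 0.359 and 0.348 in CM-JAKi. All CM libraries were under all MG-CM libraries, at -2.07 ± 0.84 (edgeR adjusted p = 0.147). Col6a4 stood at 1.41 to 1.93 CPM in MG-CM, 0.487 to 1.27 in CM and 0.425 to 0.838 in CM-JAKi, and did not pass in any comparison.

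Upstream of Col6a5, RefSeq shows the motif TTCNNNGAA, the palindrome that STAT factors downstream of JAK kinases are known to bind. It is printed, with Col28a1 further on, because these were the only members with that motif among the 35 windows (5.71%), beside 7.02% of all windows. The window is chr9:105960644-105960893 on the minus strand (GRCm38.p6), and capitals mark the motif, whose first base lies at -209 from the start.
Col6a5: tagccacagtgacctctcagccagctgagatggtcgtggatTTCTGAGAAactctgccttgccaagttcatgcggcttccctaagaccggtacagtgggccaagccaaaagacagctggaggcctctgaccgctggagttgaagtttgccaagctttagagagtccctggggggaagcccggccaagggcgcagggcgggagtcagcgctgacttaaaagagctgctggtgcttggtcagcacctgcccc

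Type I collagen, the bulk of fibrotic matrix, is built from Col1a1 and Col1a2. Col1a1 stood at 614, 667 and 715 CPM in MG-CM, 541, 574 and 793 in CM, then 1119, 958 and 1116 in CM-JAKi. CM and MG-CM overlapped (log2 -0.06 ± 0.16), and every CM-JAKi library was above both. It rose by 0.74 ± 0.16 in CM-JAKi against CM (edgeR adjusted p = 0.0147). Col1a2 stood at 412, 518 and 560.2 CPM in MG-CM, 273, 331 and 444 in CM, then 726, 950.2 and 901 in CM-JAKi. Its CM-JAKi libraries were again above all others, with a rise of 1.30 ± 0.20 (edgeR adjusted p = 0.00473). In CM it was at -0.51 ± 0.20 (edgeR adjusted p = 0.134), which was called lower with the block (edgeR adjusted p = 0.015).

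Against MG-CM, CM-JAKi stood at 0.68 ± 0.16 for Col1a1 and 0.79 ± 0.20 for Col1a2. Neither passed without the block (edgeR adjusted p = 0.1 and 0.131), and both did with it (0.0295 and 0.0115). The 2 chains did not keep a fixed ratio. Per kilobase, Col1a1 over Col1a2 was 1.35, 1.16 and 1.15 in MG-CM, 1.79, 1.57 and 1.61 in CM, then 1.39, 0.909 and 1.12 in CM-JAKi. All 3 CM libraries were above all others. Leaving out replicate 2 in every group removed the calls of both chains in CM-JAKi against CM (edgeR adjusted p = 0.165 and 0.126), whereas no single library did.

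Col3a1, which co-assembles into type I fibrils, was the most abundant chain per kilobase in MG-CM, at 308 ± 19 CPM per kilobase (SD, n = 3). Col6a1 followed at 201 ± 30.1, then Col4a1 at 144 ± 22.1, Col5a2 at 122 ± 4.67, Col1a1 at 112 ± 8.49 and Col1a2 at 92.9 ± 14.3. The intervals of 1 SD of Col4a1 and Col5a2 overlap, as do those of Col5a2 and Col1a1 and those of Col1a1 and Col1a2. Col3a1 itself stood at 1729, 1599 and 1808 CPM in MG-CM, 1048, 1297 and 2005 in CM, then 2370.4, 2122 and 1639.8 in CM-JAKi. The groups overlapped, and the PSC5-II libraries ran opposite to the others, with CM the highest there. Its changes were -0.24 ± 0.24 and 0.50 ± 0.24 (edgeR adjusted p = 0.557 and 0.175).

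Type V collagen sets the diameter of type I fibrils, and the changes of its 3 chains differed in sign. Col5a1 stood at 216, 278 and 330 CPM in MG-CM, 140.3, 165 and 200 in CM, then 249.9, 301 and 368 in CM-JAKi. CM was below all others. It rose by 0.86 ± 0.20 in CM-JAKi against CM (edgeR adjusted p = 0.0208), and was at -0.71 ± 0.20 in CM (edgeR adjusted p = 0.0581, with the block 0.00136). Col5a2 was instead higher in CM, at 828, 775 and 829.5 CPM in MG-CM and 1114, 982 and 1324 in CM. The groups did not overlap, and the change of 0.49 ± 0.15 was called with the block only (edgeR adjusted p = 0.074, with the block 0.0368). In CM-JAKi it stood at 1156, 884 and 868 CPM and overlapped CM.

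Col5a3 was the only chain called higher in CM. It stood at 9.5, 10.2 and 11 CPM in MG-CM, 27.6, 15 and 20.4 in CM, then 12.2, 12 and 15.8 in CM-JAKi. All CM libraries were above all MG-CM libraries, with a rise of 1.04 ± 0.22 (edgeR adjusted p = 0.0226). That call was lost without MG-CM replicate 1, 2 or 3 in turn (edgeR adjusted p = 0.0597, 0.0902 and 0.0551). In CM-JAKi against CM it was at -0.65 ± 0.21 (edgeR adjusted p = 0.0624), called lower with the block (0.0409). The per kilobase ratio of Col5a1 over Col5a2 was 0.206, 0.282 and 0.314 in MG-CM, 0.0993, 0.132 and 0.119 in CM, then 0.17, 0.269 and 0.334 in CM-JAKi. CM held the lowest ratio in each replicate number and did not overlap the other groups. The rise of Col5a1 in CM-JAKi lost its call without CM replicate 1 or 2 or CM-JAKi replicate 2 or 3 (edgeR adjusted p = 0.0678, 0.0563, 0.0654 and 0.0641).

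**Figure D3:**
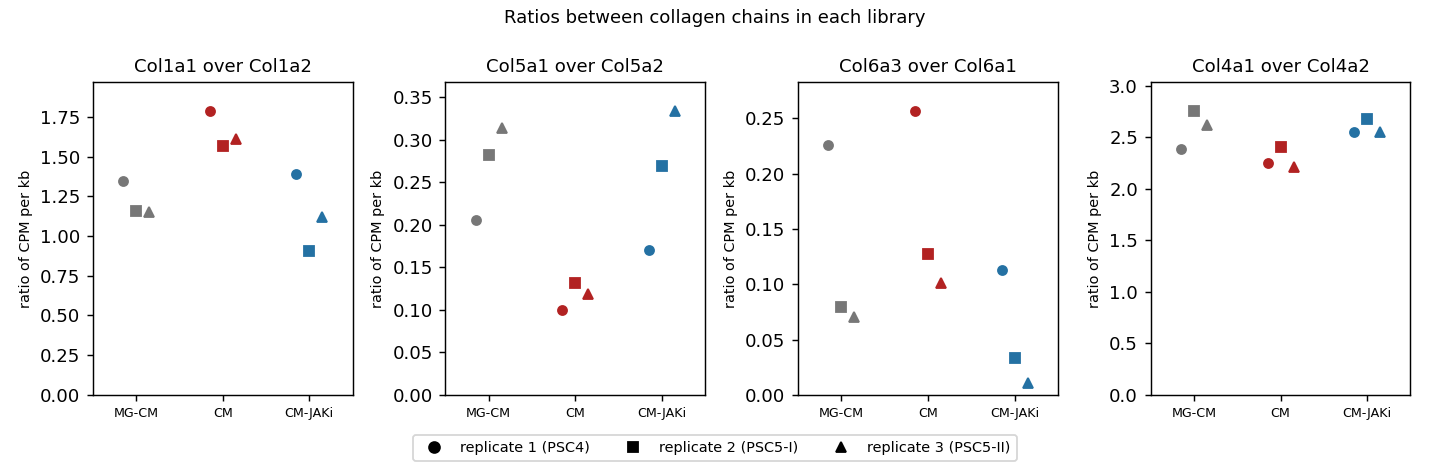
Ratio of CPM per kilobase between partner chains in each library (linear axes from 0), with marker shapes for the replicate number and line. Col1a1 over Col1a2 is highest in the 3 CM libraries, at 1.57 to 1.79, and Col5a1 over Col5a2 is lowest in CM, at 0.0993 to 0.132, whereas Col4a1 over Col4a2 stays within 2.21 to 2.76.

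Col11a1, a minor fibrillar chain that nucleates fibrils with type V chains and is widely used as a marker of activated tumour fibroblasts, showed the largest rise of its class. Its upstream 250 bases are shown for that reason (RefSeq, GRCm38.p6, chr3:114030290-114030539, plus strand). Capitals mark the GC box GGGCGG and, in reverse as ATTGG, the CCAAT box.
Col11a1: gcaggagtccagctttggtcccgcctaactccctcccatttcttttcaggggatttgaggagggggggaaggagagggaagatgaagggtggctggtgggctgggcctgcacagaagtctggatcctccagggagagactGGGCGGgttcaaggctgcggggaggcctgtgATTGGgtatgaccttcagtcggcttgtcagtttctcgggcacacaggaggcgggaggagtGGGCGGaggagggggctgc
GGGCGG was in 62.9% of the collagen windows, beside 32.7% of all windows, and CCAAT in 34.3% beside 33.8%, both strands counted. The TATA box TATAAA was in 11.4% beside 12.4%.

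Col11a1 stood at 14.3, 19.7 and 20.7 CPM in MG-CM, 5.77, 9.64 and 14.2 in CM, then 52.3, 48.7 and 42.4 in CM-JAKi. The 3 groups did not overlap, in the order of CM, MG-CM and CM-JAKi. It rose by 2.28 ± 0.29 in CM-JAKi against CM, or 4.84-fold (edgeR adjusted p = 0.00222). In CM it was at -0.88 ± 0.29 and in CM-JAKi against MG-CM at 1.39 ± 0.28, both called with the block only (edgeR adjusted p = 0.0463 and 0.0331, without it 0.0852 and 0.0676). Leaving out replicate 2 in every group gave an adjusted p of 0.0815 for the rise by edgeR.

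Col24a1, a low-abundance fibrillar chain, went the other way. It stood at 2.57, 5.65 and 5.19 CPM in MG-CM, 4.17, 4.09 and 5.68 in CM, then 1.02, 1.74 and 2.44 in CM-JAKi. All CM-JAKi libraries were below all others, and the fall was 1.43 ± 0.38 against CM (edgeR adjusted p = 0.0338). That call was lost in 5 of the 6 fits that left out 1 library, which were those without CM replicate 1, 2 or 3 (edgeR adjusted p = 0.0633, 0.0564 and 0.0832) and CM-JAKi replicate 1 or 2 (0.0676 and 0.106). Against MG-CM it was at -1.37 ± 0.38 (edgeR adjusted p = 0.18, with the block 0.0315). Col2a1 of cartilage was scarce, at 0.274, 0.338 and 0.265 CPM in MG-CM, 0.278, 0.155 and 0.0984 in CM, then 0.431, 0.389 and 0.541 in CM-JAKi. It was highest in the CM-JAKi libraries, and was called higher in CM-JAKi against CM with the block only (1.34 ± 0.41, edgeR adjusted p = 0.0462, without it 0.0521). Col11a2 and Col27a1 passed in no comparison.

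Col4a1 and Col4a2 form the common type IV collagen of basement membranes and are transcribed from starts 21 bases apart on opposite strands. Whether the counting used strand is not given in the sources used here. Col4a1 stood at 1000.1, 789.8 and 1071 CPM in MG-CM, 925, 910 and 1063 in CM, then 1646, 819.9 and 749.8 in CM-JAKi. Only the PSC4 library with the inhibitor stood out. Col4a2 had the same shape, at 407, 279 and 399 CPM, then 401, 367 and 469, then 631, 299 and 286. Neither passed in any comparison, with log2 changes in CM of 0.02 ± 0.28 and 0.19 ± 0.30, and with the inhibitor of 0.15 ± 0.28 and -0.03 ± 0.30 (edgeR adjusted p = 0.975, 0.732, 0.744 and 0.959). Their per kilobase ratio ran from 2.21 to 2.76 over all 9 libraries, and all CM libraries but replicate 2 lay below the MG-CM range.

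Among the minor type IV chains, Col4a5 responded. It stood at 125, 154 and 158 CPM in MG-CM, 50.4, 115 and 89.8 in CM, then 226, 273 and 272 in CM-JAKi. The groups did not overlap. It rose by 1.60 ± 0.26 in CM-JAKi against CM (edgeR adjusted p = 0.0058), and with the block it was called lower in CM (-0.78 ± 0.26, edgeR adjusted p = 0.0159, without it 0.0885) and higher in CM-JAKi against MG-CM (0.82 ± 0.26, edgeR adjusted p = 0.0474, without it 0.256). Without replicate 2 or 3 in every group the rise did not pass (edgeR adjusted p = 0.0592 and 0.0848). Its neighbour on the X chromosome, Col4a6, whose start lies 1343 bases away on the opposite strand, was scarce, at 1.22 to 8.9 CPM, and passed in no comparison (1.31 ± 0.50 in CM-JAKi against CM, unadjusted p = 0.0293 by edgeR). Col4a3 and Col4a4, partners of Col4a5 in the kidney, stayed at or under 1.15 CPM.

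Col8a2, a short-chain network collagen, stood at 3.05, 1.93 and 2.16 CPM in MG-CM, 2.5, 2.2 and 1.61 in CM, then 6.31, 7.42 and 2.82 in CM-JAKi. All CM-JAKi libraries were above all CM libraries, and the rise was 1.39 ± 0.37 (edgeR adjusted p = 0.0323). It lost its call without any library of the comparison except CM-JAKi replicate 3 (edgeR adjusted p = 0.0621, 0.0726 and 0.0904 without CM replicate 1, 2 or 3, and 0.0682 and 0.122 without CM-JAKi replicate 1 or 2). Its partner Col8a1 was far more abundant, at 103 to 264 CPM, and passed in no comparison. Col10a1, the hypertrophic cartilage chain, stayed at or under 0.886 CPM.

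FACIT collagens sit on the surface of fibrils. Col14a1 stood at 3.53, 1.96 and 1.93 CPM in MG-CM, 1.39, 1.05 and 1.57 in CM, then 3.29, 2.78 and 3.02 in CM-JAKi. CM was below both other groups, and the rise in CM-JAKi was 1.18 ± 0.29 (edgeR adjusted p = 0.0265). It was called lower in CM with the block only (-0.89 ± 0.29, edgeR adjusted p = 0.0401, without it 0.0904). The rise lost its call in 5 of the 6 fits that left out 1 library, without CM replicate 1 or 2 (edgeR adjusted p = 0.0661 and 0.0767) or any CM-JAKi library (0.0571, 0.0697 and 0.065).

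Col12a1, the most abundant FACIT chain per kilobase after Col16a1, was lower in both groups with conditioned medium than in MG-CM. It stood at 296, 174 and 162 CPM in MG-CM, 147, 69.4 and 104 in CM, then 121, 66.5 and 78.4 in CM-JAKi. CM and CM-JAKi overlapped, and both lay below MG-CM. With the block it was called lower in CM (block estimate -0.99 ± 0.12, edgeR adjusted p = 0.00278) and in CM-JAKi against MG-CM (-1.25 ± 0.12, edgeR adjusted p = 0.00432). Without the block the changes were -0.98 ± 0.34 and -1.25 ± 0.34 (edgeR adjusted p = 0.101 and 0.176). CM-JAKi against CM was -0.27 ± 0.34 (edgeR adjusted p = 0.617). Col16a1 stood at 188, 152 and 140 CPM in MG-CM, 149, 140.3 and 144 in CM, then 214, 169 and 159 in CM-JAKi. CM-JAKi lay above CM and overlapped MG-CM, and it was called higher in CM-JAKi against CM with the block only (0.32 ± 0.14, edgeR adjusted p = 0.0306, without it 0.139). Col19a1, another scarce chain, stood at 0.171, 0.44 and 0.379 CPM in MG-CM, 0, 0.124 and 0.0656 in CM, then 0.123, 0.299 and 0.464 in CM-JAKi. It was lowest in CM within each replicate number, and was called lower in CM and higher in CM-JAKi with the block only (edgeR adjusted p = 0.0271 and 0.0289, without it 0.109 and 0.107).

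The multiplexin Col15a1, a proteoglycan collagen that links basement membranes to the fibrils beside them, had the largest rise of any chain. Its upstream window is shown because it holds none of the 5 motifs searched, on either strand (RefSeq, GRCm38.p6, chr4:47207762-47208011, plus strand), so no letters are in capitals.
Col15a1: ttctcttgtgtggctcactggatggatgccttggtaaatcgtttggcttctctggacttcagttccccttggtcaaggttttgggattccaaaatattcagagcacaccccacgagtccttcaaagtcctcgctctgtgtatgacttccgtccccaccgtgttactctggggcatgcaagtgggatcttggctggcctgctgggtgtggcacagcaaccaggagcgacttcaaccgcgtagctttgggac
Col15a1 stood at 3.53, 2.23 and 1.4 CPM in MG-CM, 1.36, 0.496 and 0.394 in CM, then 12.6, 9.96 and 8.7 in CM-JAKi. The 3 groups did not overlap. It rose 13.9-fold in CM-JAKi against CM (log2 3.80 ± 0.51, edgeR adjusted p = 0.00247). In CM it was at -1.68 ± 0.49 and in CM-JAKi against MG-CM at 2.12 ± 0.46, both called with the block only (edgeR adjusted p = 0.00688 and 0.00639, without it 0.0622 and 0.0793). Without replicate 2 in every group the rise had an edgeR adjusted p of 0.0851. The other multiplexin, Col18a1, the precursor of endostatin, was at 38.3 to 57.7 CPM and passed in no comparison.

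Col28a1, a small collagen with von Willebrand factor A domains known from peripheral nerve, was the other extreme. Its upstream window is chr6:8192618-8192867 on the minus strand (RefSeq, GRCm38.p6). Capitals mark TTCNNNGAA, with its first base at -104.
Col28a1: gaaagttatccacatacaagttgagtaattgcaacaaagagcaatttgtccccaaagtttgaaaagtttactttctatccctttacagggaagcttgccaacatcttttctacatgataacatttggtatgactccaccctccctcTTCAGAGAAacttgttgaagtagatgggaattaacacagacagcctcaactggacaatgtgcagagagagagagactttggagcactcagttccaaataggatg
It stood at 82.5, 43.6 and 67 CPM in MG-CM, 8.76, 63.7 and 61 in CM, then 7.67, 0.598 and 1.04 in CM-JAKi. All CM-JAKi libraries were below all others. The PSC5 libraries held their level in CM and were low with the inhibitor, whereas PSC4 was low in both. The fall in CM-JAKi against CM was 3.82 ± 0.98, or 14.2-fold (edgeR adjusted p = 0.0301). It lost its call without CM replicate 2 or 3 (edgeR adjusted p = 0.0648 and 0.0626) or CM-JAKi replicate 2 or 3 (0.0879 and 0.085). Against MG-CM, CM-JAKi was at -4.36 ± 1.00 (edgeR adjusted p = 0.0987, with the block 0.0819, DESeq2 0.00191), and CM was at -0.53 ± 0.85 (edgeR adjusted p = 0.733).

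The change with the inhibitor was log2 -0.19 in PSC4, -6.58 in PSC5-I and -5.78 in PSC5-II. A term for line gave a difference of -6.09 between PSC5 and PSC4 (edgeR adjusted p = 0.0172, with 0.367% of all genes past the threshold). PSC4 has 1 library per group, so the spread behind that test comes from the PSC5 libraries alone, and line and medium source cannot be told apart. Col6a5 and Col6a6 also passed this test, and are given in the closing part.

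**Figure D4:**
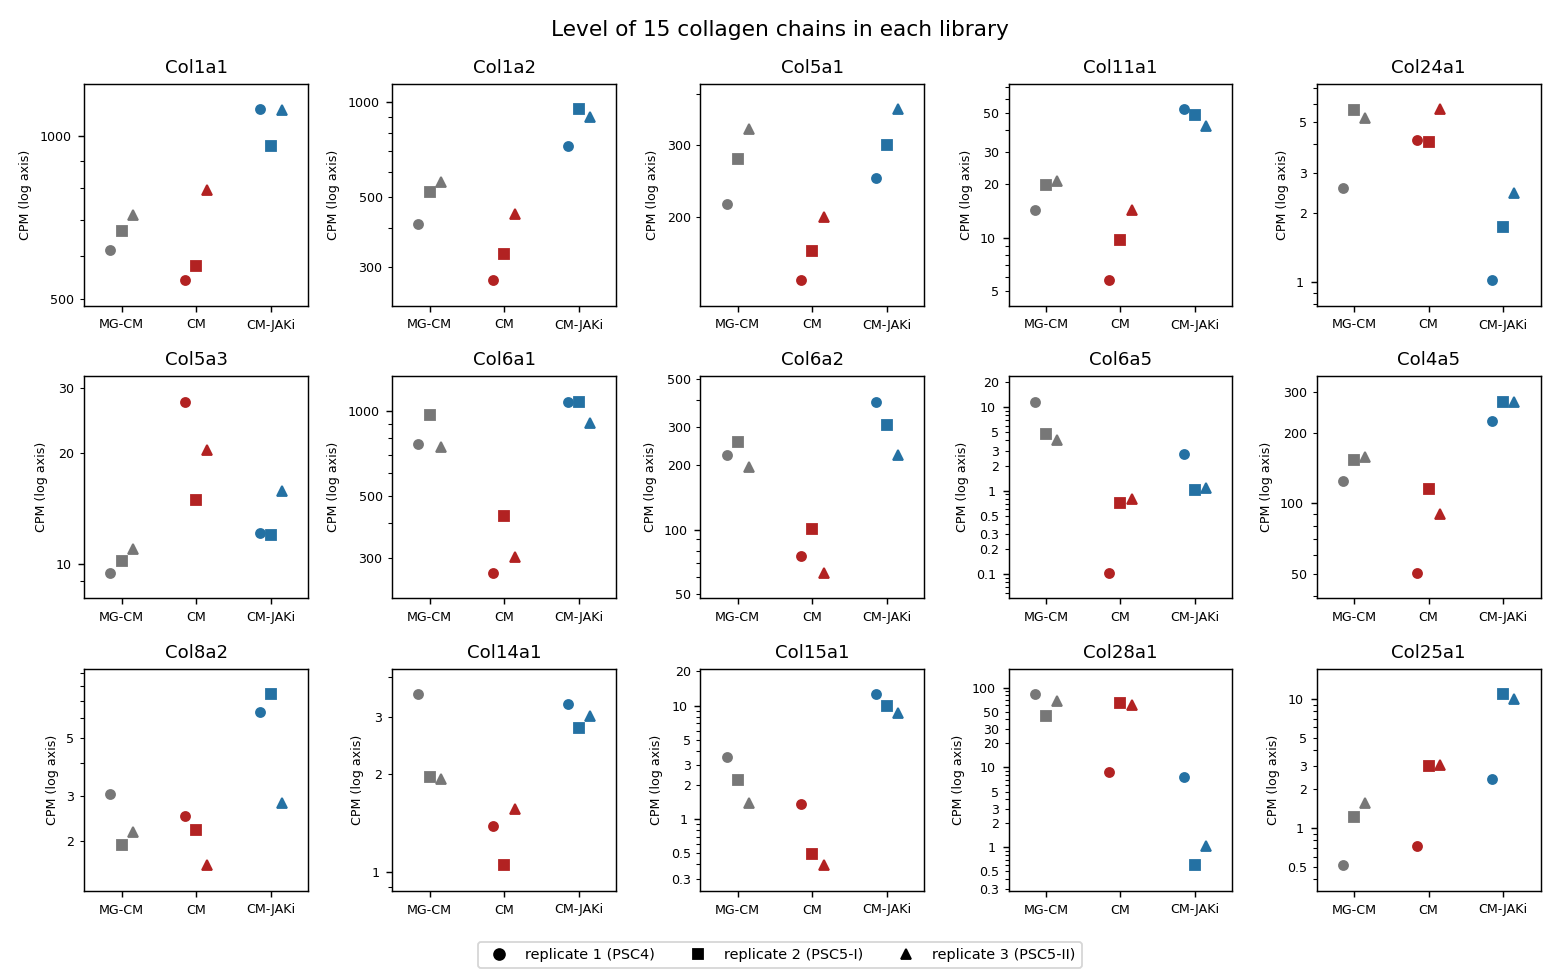
CPM of 15 chains in each of the 9 libraries on log axes, with marker shapes for the replicate number and line. Col6a1, Col6a2 and Col15a1 are lowest in all 3 CM libraries, and Col28a1 is at 0.598 and 1.04 CPM in the PSC5 libraries with the inhibitor but at 7.67 in PSC4.

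Of the transmembrane chains, which stay anchored in the cell membrane, Col25a1 stood at 0.514, 1.22 and 1.55 CPM in MG-CM, 0.73, 3.01 and 3.05 in CM, then 2.37, 10.8 and 9.94 in CM-JAKi. Each replicate number was higher in CM than in MG-CM and higher again in CM-JAKi, and CM as a group overlapped both other groups. Without the block no change passed (edgeR adjusted p = 0.375, 0.105 and 0.139). With it, all 3 did: 1.05 ± 0.71 in CM, 1.76 ± 0.68 in CM-JAKi against CM and 2.81 ± 0.72 in CM-JAKi against MG-CM (edgeR adjusted p = 0.0176, 0.00105 and 0.00165). These estimates and SEs are those of the fit without the block, and with it they were 0.98 ± 0.21, 1.75 ± 0.19 and 2.73 ± 0.21. Col23a1 stood at 8.03, 7.27 and 7.73 CPM in MG-CM, 17.8, 8.86 and 6.2 in CM, then 10.2, 3.95 and 2.9 in CM-JAKi. The groups overlapped, though each replicate number was lower in CM-JAKi than in CM, and it was called lower in CM-JAKi against CM with the block only (-0.94 ± 0.50, edgeR adjusted p = 0.0486, without it 0.216). Col17a1, the hemidesmosome chain, stood at 0.88 to 2.75 CPM and passed in no comparison.

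Col7a1, which anchors basement membranes to the stroma, stood at 2.06, 3.79 and 4.43 CPM in MG-CM, 4.35, 6.72 and 7.35 in CM, then 3.85, 9.16 and 7.77 in CM-JAKi. Each replicate number was higher in CM and in CM-JAKi than in MG-CM. It was called higher with the block only, at block estimates of 0.87 ± 0.16 in CM and 1 ± 0.16 in CM-JAKi against MG-CM (edgeR adjusted p = 0.0105 and 0.0203). Without the block the changes were 0.84 ± 0.39 and 1.02 ± 0.39 (edgeR adjusted p = 0.193 and 0.37).

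Collagen chains are modified, folded, trimmed, crosslinked, bound and degraded by other proteins, and 6 lists of such genes were read beside them. Of 58 listed genes in the table, 54 passed the filter. In CM against MG-CM 4 rose and 4 fell, beside 4.85% and 5.39% of all genes. With the inhibitor 8 rose and 4 fell against CM, beside 10.1% and 8.93%, and 0 rose and 1 fell against MG-CM, beside 0.286% and 0.720%. The median log2 changes of the 54 were 0.0269, 0.118 and 0.081. The block gave 11 higher and 10 lower in CM (all genes 11.6% and 12.8%), 15 and 10 in CM-JAKi against CM (18.6% and 15.6%), and 3 and 3 in CM-JAKi against MG-CM (1.85% and 2.40%).

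P4ha1 and P4ha2, catalytic subunits of the prolyl hydroxylase that stabilises the triple helix, rose in CM by 0.63 ± 0.15 and 0.79 ± 0.21 (edgeR adjusted p = 0.0328 and 0.0477). P4ha3, another catalytic subunit, was at -0.62 ± 0.23 in CM (edgeR adjusted p = 0.122), with all CM libraries below all MG-CM libraries. With the inhibitor, P4ha3 was at -0.61 ± 0.24 against CM (edgeR adjusted p = 0.103, with the block 0.0382). P4ha2 stood at 41.7, 49.8 and 48.6 CPM in MG-CM, 105, 57 and 79.9 in CM, then 41.6, 44.6 and 56 in CM-JAKi. Its CM libraries were above all others, and it fell by 0.76 ± 0.21 with the inhibitor (edgeR adjusted p = 0.0356). Plod3, a lysyl hydroxylase and glucosyltransferase, fell by 0.61 ± 0.10 in CM-JAKi against CM (edgeR adjusted p = 0.00518), whereas Leprel1, a prolyl 3-hydroxylase, fell by 1.13 ± 0.28 in CM (edgeR adjusted p = 0.0401). Of the folding genes, Fkbp7 fell by 0.46 ± 0.12 in CM (edgeR adjusted p = 0.0485) and Fkbp14 rose by 0.50 ± 0.11 in CM-JAKi (edgeR adjusted p = 0.0156). With the block P4ha1 was also called lower in CM-JAKi against CM (-0.48 ± 0.15, edgeR adjusted p = 0.0475, without it 0.0534). The lysyl hydroxylase Plod2 was called higher in CM with the block only (0.39 ± 0.14, edgeR adjusted p = 0.0468, without it 0.107). The collagen chaperone Serpinh1 did not pass, at 0.06 ± 0.14 and 0.12 ± 0.14 (edgeR adjusted p = 0.805 and 0.583).

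Bmp1, which cleaves the carboxyl propeptide of fibrillar collagens, stood at 185, 145 and 155 CPM in MG-CM, 252, 221 and 292 in CM, then 180.3, 153 and 167 in CM-JAKi. All CM libraries were above all others. It rose by 0.66 ± 0.13 in CM and fell by 0.61 ± 0.13 in CM-JAKi (edgeR adjusted p = 0.021 and 0.0159), opposite in sign to Col6a1. The related protease Tll1 rose by 2.02 ± 0.59 in CM-JAKi (edgeR adjusted p = 0.0446). Pcolce2, an enhancer of that cleavage, fell by 1.70 ± 0.27 in CM (edgeR adjusted p = 0.0106). It stood at 9.64, 6.12 and 5.65 CPM in MG-CM, 2.47, 2.32 and 1.77 in CM, then 2.86, 2.54 and 1.97 in CM-JAKi. CM and CM-JAKi overlapped below MG-CM, and Pcolce2 was the 1 listed gene called in CM-JAKi against MG-CM (fell by 1.53 ± 0.27, edgeR adjusted p = 0.0354).

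Lox, the lysyl oxidase that starts crosslinking, stood at 714, 667 and 553 CPM in MG-CM, 229.9, 289 and 606 in CM, then 1345, 1149.8 and 1139 in CM-JAKi. All CM-JAKi libraries were above the rest, with a rise of 1.69 ± 0.32 against CM (edgeR adjusted p = 0.0102), and CM did not lie below MG-CM in PSC5-II. CM against MG-CM was -0.78 ± 0.32 (edgeR adjusted p = 0.147). Of the receptors, the collagen-binding integrin Itga1 fell by 1.27 ± 0.23 in CM and rose by 0.81 ± 0.23 in CM-JAKi (edgeR adjusted p = 0.0157 and 0.0378). Against CM, the inhibitor group had higher levels of 3 further receptors, where Itga11 rose by 1.48 ± 0.39, and the discoidin receptors Ddr1 by 0.63 ± 0.17 and Ddr2 by 0.39 ± 0.09 (edgeR adjusted p = 0.032, 0.0369 and 0.0208).

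The collagenase Mmp13 stood at 3.29, 0.474 and 1.02 CPM in MG-CM, 167, 32.8 and 32.7 in CM, then 11.6, 0.868 and 1.04 in CM-JAKi. Every CM library was above every other, with a rise of 5.59 ± 1.27 and a fall of 4.09 ± 1.15 (edgeR adjusted p = 0.0289 and 0.0394). DESeq2 gave no adjusted p for the rise. The fall did not pass without the low-count filter or in the fit of only the 2 groups compared (edgeR adjusted p = 0.0596 and 0.069). The gelatinase Mmp9 rose by 1.73 ± 0.32 in CM-JAKi against CM (edgeR adjusted p = 0.00865). Leaving out 1 library at a time ended none of the calls of Pcolce2 in CM, and of Plod3, Lox and Mmp9 in CM-JAKi. In CM against MG-CM it ended the others in 5 of 6 fits for P4ha1, P4ha2 and Leprel1 (edgeR adjusted p up to 0.0965, 0.129 and 0.112), 6 for Fkbp7 (up to 0.163), 4 for Mmp13 (up to 0.12), 2 for Bmp1 (0.0916 and 0.0624 without MG-CM replicate 2 or 3) and 1 for Itga1 (0.0525 without MG-CM replicate 2). Against CM, for CM-JAKi, it ended them in 5 of 6 fits for Tll1, Itga1 and Ddr1 (edgeR adjusted p up to 0.128, 0.113 and 0.116), 4 for P4ha2, Itga11 and Ddr2 (up to 0.117, 0.12 and 0.0737) and 3 for Mmp13 (up to 0.129). Fkbp14 and Bmp1 lost it there in 1 fit, without CM-JAKi replicate 2 (edgeR adjusted p = 0.0676 and 0.069). The fall of Pcolce2 against MG-CM was lost in all 6 such fits (edgeR adjusted p = 0.0539 to 0.156).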

How the data were processed

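RNA of 9 cultures in 3 groups was sequenced with a strand-specific kit after removal of ribosomal RNA, per the labels' protocols. The authors deposited expected counts per gene, already whole numbers, and 3 tools, RSEM 1.2.29, STAR 2.5.1b and DESeq2, appear without roles in the submitters' processing notes beside the builds NCBIM37 and mm9. Whether the counting used strand is not given in the sources used here, so reads of overlapping genes cannot be told apart. No column of the table was left without a sample.

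From these counts, edgeR 4.0.16 (R 4.3.3) kept 13613 genes with filterByExpr (minimum count 10, minimum total 15), scaled by TMM, and ran the robust quasi-likelihood test with group as the only term over all 9 libraries. A gene was called at a Benjamini-Hochberg adjusted p under 0.05 over all kept genes. Levels are TMM-scaled CPM. Fold changes are edgeR's log2 estimates at its default prior count. Changes of single chains given per replicate number or line are differences in log2 CPM with a prior count of 2. Libraries of 1 replicate number share a line, and those of CM and CM-JAKi also share a source of conditioned medium. Their deviations from the group means correlated at 0.291 to 0.68 in all 9 same-number pairs, and at 0.279 at most between other pairs, so a fit with the replicate number as a block is given beside the results it changes. DESeq2 1.42.0, other scalings, no filter, no robust estimation, only the 2 groups compared, and omitted libraries or replicate numbers were the alternatives. The code was tested on simulated data. Replicates of a group differed beyond counting noise, with chi-square per degree of freedom of 16 to 115, and p-values measure only the spread between these cultures.

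Kilobases are those of the longest protein-coding transcript in GENCODE M21 (GRCm38), another build than the files'. Upstream sequences are RefSeq's for GRCm38.p6. Named are the chains called with or without the block, 10 major chains whatever their result, and of each of 6 lists of collagen assembly and turnover genes up to 4 called genes and 5 genes whatever their result. P4ha3 is given beside P4ha1 and P4ha2. The marker genes named were chosen after their values were seen. Members and lists were chosen with earlier results of these data known.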

Additional observations from a re-analysis of the deposited data

Results flagged for a closer look

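A term for cell line in edgeR asked whether a chain's change differed between PSC5 (replicates 2 and 3) and PSC4 (replicate 1). It passed in 4 cases over 3 chains. For Col28a1 in CM-JAKi against CM the log2 change was -0.19 in PSC4 and -6.58 and -5.78 in PSC5, a difference of -6.09 (edgeR adjusted p = 0.0172). For Col6a5 in CM against MG-CM it was -6.09 in PSC4 and -2.62 and -2.26 in PSC5, a difference of 4.2 (edgeR adjusted p = 0.043), and in CM-JAKi against CM the difference was -4.18 (edgeR adjusted p = 0.0391). For Col6a6 in CM-JAKi against CM the log2 change was 3.43 in PSC4 and -0.55 and -0.43 in PSC5, a difference of -4.48 (edgeR adjusted p = 0.0472). The 2 comparisons share the PSC4 library in CM, which holds 3 counts of Col6a5 and 4 of Col6a6. The PSC5 libraries of CM-JAKi hold 12 and 9 counts of Col6a6. The term passed for 0.228% of all genes in CM against MG-CM, 0.367% in CM-JAKi against CM and 0% in CM-JAKi against MG-CM. PSC4 has 1 library per group and is assumed to vary like PSC5.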

How the results depend on the processing

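Over 53 named genes, 0 called values changed sign under any alternative, and 77 uncalled ones did. In CM against MG-CM, DESeq2 called 2 chains higher and 9 lower, and the fit of only the 2 groups compared called 4 assembly and turnover genes in place of 8. In CM-JAKi against CM, that fit called 1 chain lower in place of 2 and 7 assembly genes in place of 12, where DESeq2 called 20. In CM-JAKi against MG-CM, DESeq2 called 5 chains higher, 5 lower and 5 assembly genes, the 2-group fit called 3 chains higher and 2 assembly genes, and library size alone gave 0 assembly genes.

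Leaving out 1 library, or 1 replicate number in every group, moved the chains called in CM against MG-CM over 0 to 2 higher and 0 to 8 lower, and the assembly genes over 0 to 14. The ranges were 2 to 11 higher, 0 to 3 lower and 0 to 16 assembly genes in CM-JAKi against CM, and 0 to 6, 0 to 4 and 0 to 4 in CM-JAKi against MG-CM. No chain was called in CM against MG-CM without replicate 2 or without replicate 3, fits that hold 2 libraries per group. The summed collagen level moved over -0.37 to -0.15, 0.37 to 0.65 and 0.14 to 0.36.

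The replicate block called 4 chains higher, 11 lower and 21 assembly genes in CM against MG-CM, 14, 4 and 25 in CM-JAKi against CM, and 7, 2 and 6 in CM-JAKi against MG-CM, and it ended no call. With the block and without replicate 1, 2 or 3 in turn, a setting added after the data were seen, the chains higher in CM were 4, 0 and 0 and those lower 9, 5 and 7. In CM-JAKi against CM those lower were 5, 1 and 1. In CM-JAKi against MG-CM those higher were 7 without replicate 1 and 1 without replicate 2, and those lower 8, 1 and 1. For the fits that left out libraries or held only 2 groups, the share of all genes called is not given. Their counts therefore cannot show whether collagen chains shifted more than other genes. Chains under 1 CPM rest on few counts, and their calls are the least precise here.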

Other observations

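Further ratios between partner chains, per kilobase, are given as values. Col6a1 over Col6a2 was 3.93, 4.29 and 4.32 in MG-CM, 4, 4.79 and 5.43 in CM, then 3.12, 4 and 4.66 in CM-JAKi, lowest with the inhibitor in replicates 1 and 2 and lowest in MG-CM in replicate 3. Col3a1 over Col1a1 was 3, 2.55 and 2.7 in MG-CM, 2.06, 2.41 and 2.7 in CM, then 2.26, 2.36 and 1.57 in CM-JAKi. Col8a1 over Col8a2 was 39.1, 57.8 and 85.1 in MG-CM, 35.1, 62.6 and 139 in CM, then 16.7, 22.3 and 66.1 in CM-JAKi, lowest with the inhibitor in each replicate number. None of these ratios was tested.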
